A study of Mus musculus with 16 samples.

Results

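The lactate dehydrogenase genes Ldha and Ldhb, the plasma membrane monocarboxylate carriers Slc16a1 and Slc16a3, the mitochondrial pyruvate carrier subunits Mpc1 and Mpc2, and pyruvate carboxylase (Pcx) were followed in brown adipose tissue (BAT) and gonadal white adipose tissue (gWAT) of mice made to lack Pgam1, a glycolytic enzyme, in adipocytes. These 7 genes were taken by name out of 22907 gene symbols on the array, through the RefSeq accession of each probe, and each was represented by its brightest probe. RNA of male mice of strain C57BL/6NCrSlc was hybridized to Agilent 1-colour arrays, 16 in number, 4 for each genotype of each tissue. Littermate controls carried Pgam1 flox/flox without Adipoq-Cre, and Adipo-Pgam1 KO mice carried Pgam1 flox/flox with Adipoq-Cre, so both genotypes shared the floxed allele. All mice were given as 16 weeks old, except replicate 4 of the KO group in both tissues, given as 14 weeks. Cre under the adiponectin promoter acts in adipocytes, and cells of each depot in which that promoter is not active keep the gene. In GRCm38.p6 the genes lie at chr7:46842274-46855627 (Ldha), chr6:142490249-142507957 (Ldhb), chr3:104638664-104658462 (Slc16a1), chr11:120948484-120959000 (Slc16a3), chr17:8283787-8297667 (Mpc1), chr1:165461260-165481218 (Mpc2) and chr19:4510472-4621752 (Pcx). A level here is the log2 of the background-subtracted intensity of a probe over the 75th percentile of its array.

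Lactate dehydrogenase interconverts pyruvate and lactate, with Ldha giving the subunit that predominates in glycolytic tissue and Ldhb the subunit that predominates in oxidative tissue. Slc16a1 encodes MCT1 and Slc16a3 encodes MCT4, which carry lactate and pyruvate with a proton across the plasma membrane, whereas the products of Mpc1 and Mpc2 form the complex that brings pyruvate into mitochondria. Pyruvate carboxylase turns mitochondrial pyruvate into oxaloacetate, which feeds the citric acid cycle and, in adipocytes, the supply of citrate and glycerol 3-phosphate for lipid synthesis.

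The 250 bases before the annotated starts of these genes were read from RefSeq (GRCm38.p6) and searched on both strands for ACGTG, the core of the hypoxia response element, for the E-box CACGTG, and for AAGGTCA, TGATGNAA and TGACGTCA, the sites of estrogen-related receptors, ATF4 and CREB. The site of NRF1 was searched as GCGCA, any base, then GCGC. Every E-box also holds ACGTG on both strands. The 7 genes had 10 such windows. E-boxes lay in 3 of the 10 (of Ldha, Slc16a1 and Pcx), whereas 6.02% of 32851 promoter windows of the same length held one, and ACGTG lay in 4 of the 10 against 16.6% of all windows. The NRF1 site lay in 1 of the 10, the second window of Ldha, 62 to 53 bases before its start, against 3.74% of all windows, and AAGGTCA and TGATGNAA lay in none of the 10, against 4.08% and 3.45%. No match to any of the 6 motifs was found for Ldhb, Mpc1 or Mpc2. The 4 windows below are shown because they hold these matches in genes with different results in BAT, with capitals marking every match. The windows of Ldha (chr7:46845554-46845803), Slc16a1 (chr3:104638414-104638663), Slc16a3 (chr11:120948817-120949066) and Pcx (chr19:4510222-4510471) all lie on the plus strand. Those of Ldha and Slc16a3 fall inside the RefSeq span of their own gene, which begins at an earlier start.
Ldha: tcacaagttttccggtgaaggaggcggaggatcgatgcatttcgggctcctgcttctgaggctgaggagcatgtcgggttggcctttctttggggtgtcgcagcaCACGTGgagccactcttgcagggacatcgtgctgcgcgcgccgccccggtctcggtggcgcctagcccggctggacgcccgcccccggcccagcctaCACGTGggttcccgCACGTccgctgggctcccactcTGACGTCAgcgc
Slc16a1: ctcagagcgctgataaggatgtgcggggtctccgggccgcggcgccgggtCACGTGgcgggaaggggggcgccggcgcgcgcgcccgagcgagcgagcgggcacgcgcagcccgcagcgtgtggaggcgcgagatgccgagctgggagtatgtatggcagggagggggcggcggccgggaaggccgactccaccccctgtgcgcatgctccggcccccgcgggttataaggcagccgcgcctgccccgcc
Slc16a3: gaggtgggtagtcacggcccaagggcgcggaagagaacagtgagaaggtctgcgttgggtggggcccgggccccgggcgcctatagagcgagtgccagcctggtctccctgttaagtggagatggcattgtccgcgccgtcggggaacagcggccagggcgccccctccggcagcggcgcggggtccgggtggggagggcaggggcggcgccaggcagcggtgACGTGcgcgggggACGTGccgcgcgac
Pcx: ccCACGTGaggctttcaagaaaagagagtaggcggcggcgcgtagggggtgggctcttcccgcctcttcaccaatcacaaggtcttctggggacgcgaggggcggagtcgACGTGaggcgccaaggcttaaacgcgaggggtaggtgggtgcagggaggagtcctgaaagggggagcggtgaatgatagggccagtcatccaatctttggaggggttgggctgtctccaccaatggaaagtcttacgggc
The E-boxes of Ldha ended 140 and 43 bases before the start, that of Slc16a1 ended 195 bases before it and that of Pcx 243 bases before it. Ldha also held TGACGTCA, present in 1.55% of windows, 5 bases before the start. The array measured transcript level only, so binding at these letters was not measured.

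Pgam1, the targeted gene, read 6.03 to 6.43 in KO BAT against 7.82 to 8.07 in controls, which went with the labels. In gWAT the arrays labelled Adipo-Pgam1 KO held more of it (5.95 to 6.50) than controls did (5.07 to 5.67), against the label, so directions in gWAT are given for the arrays as labelled. Where the Pgam1 probes lie relative to the floxed exons was not known here, and RNA from cells without Cre is included in both tissues. In BAT, 7 of 7 adipocyte markers and 6 of 7 brown adipocyte markers were lower in KO mice, beside 33.9% of all genes tested, with summed linear levels of 810.5 to 1154 against 2413 to 2631 in controls for the former, and of 1125 to 1838 against 3213 to 3437 for the latter. Macrophage markers moved the other way in BAT (5 of 7 higher, beside 27.5% of all genes, summed level 26.5 to 37.9 in controls and 84.1 to 128.7 in KO mice). In gWAT 1 of 7 macrophage markers (Cd68) and 3 of 5 tested brown adipocyte markers were higher in the arrays labelled KO, beside 9.95% of all genes. Among these 3, Elovl3 had 1 of its 4 control spots not well above background. The summed brown marker level of these arrays was 64.7 to 174.6 against 11.9 to 20.3 in controls. This sum includes Ucp1 and Dio2, which were not tested in gWAT. By PCR, the paper reports less Pgam1 and more Ucp1 and Cpt1b transcript in KO gWAT. The 3 brown adipocyte markers thus went with the label, unlike Pgam1. Whether labels were exchanged was not tested. Of 7 adipocyte markers in gWAT 1 was lower (Adipoq) and none higher, beside 7.86% of all genes lower. Of 4 tested skeletal muscle markers, 1 was higher and 1 lower in BAT, and 1 was lower in gWAT. The summed level of the 8 listed was 7.36 to 108 in KO BAT against 43.3 to 50.2 in controls. The part of cell content in the values below was not tested, and in whole tissue fewer cells of a type and less RNA per cell cannot be told apart. The arrays lay on 3 slides, and in each tissue 3 of 4 controls lay on a different slide from the remaining control and the 4 KO arrays. They were scanned on 2 days. All BAT arrays and the first 3 gWAT controls were scanned on day 1. The remaining gWAT control and the 4 gWAT arrays labelled KO were scanned on day 2, so scan day went with slide within gWAT only.

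Between the arrays labelled control, 5 of the 7 genes stood higher in BAT than in gWAT. Ldhb differed most, with levels of 8.42, 8.41, 8.40 and 8.38 in control BAT and 4.85, 4.70, 4.93 and 5.12 in control gWAT. This was an 11.3-fold difference (gWAT minus BAT, log2 -3.50, standard error 0.18, adjusted p = 1.27e-09 by limma), and the 2 groups lay far apart. Slc16a1 (MCT1) stood at 5.22, 4.58, 4.79 and 4.50 in control BAT and at 1.77, 1.86, 2.44 and 1.75 in control gWAT, a 7.04-fold difference (adjusted p = 2.9e-08). The BAT level was 3.75-fold higher for Mpc1, 4.72-fold higher for Mpc2 and 2.31-fold higher for Ldha, with adjusted p of 5.25e-07, 1.75e-06 and 1.33e-05, and control groups of the 2 tissues did not overlap for any of the 3. Pcx did not pass the test between control tissues (log2 0.19, standard error 0.18, adjusted p = 0.374), with 7.23 to 7.52 in BAT and 7.25 to 7.87 in gWAT. Slc16a3 (MCT4) was 1.76-fold higher in gWAT (adjusted p = 0.033), but its groups overlapped and the call was lost without BAT control replicate 4 (log2 0.60, adjusted p = 0.113), gWAT control replicate 1 (0.53, adjusted p = 0.12) or gWAT control replicate 4 (0.76, adjusted p = 0.0709). Set against control BAT, the other gWAT group, labelled KO, was also lower for the same 5 genes, by -0.87 for Ldha, -2.53 for Ldhb, -1.42 for Slc16a1, -0.60 for Mpc1 and -0.98 for Mpc2 (adjusted p from 4.34e-08 to 0.0107), whereas Pcx was higher there (0.96, adjusted p = 0.000302) and Slc16a3 did not pass (0.62, adjusted p = 0.0969). Between control tissues 66.4% of all 14792 genes tested passed, 35.9% with the higher level in BAT and 30.4% in gWAT. Ldha lost its call under quantile normalization (log2 -0.20, adjusted p = 0.0702), under which Pcx was higher in gWAT (1.0, adjusted p = 2.13e-05).

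**Figure D1:**
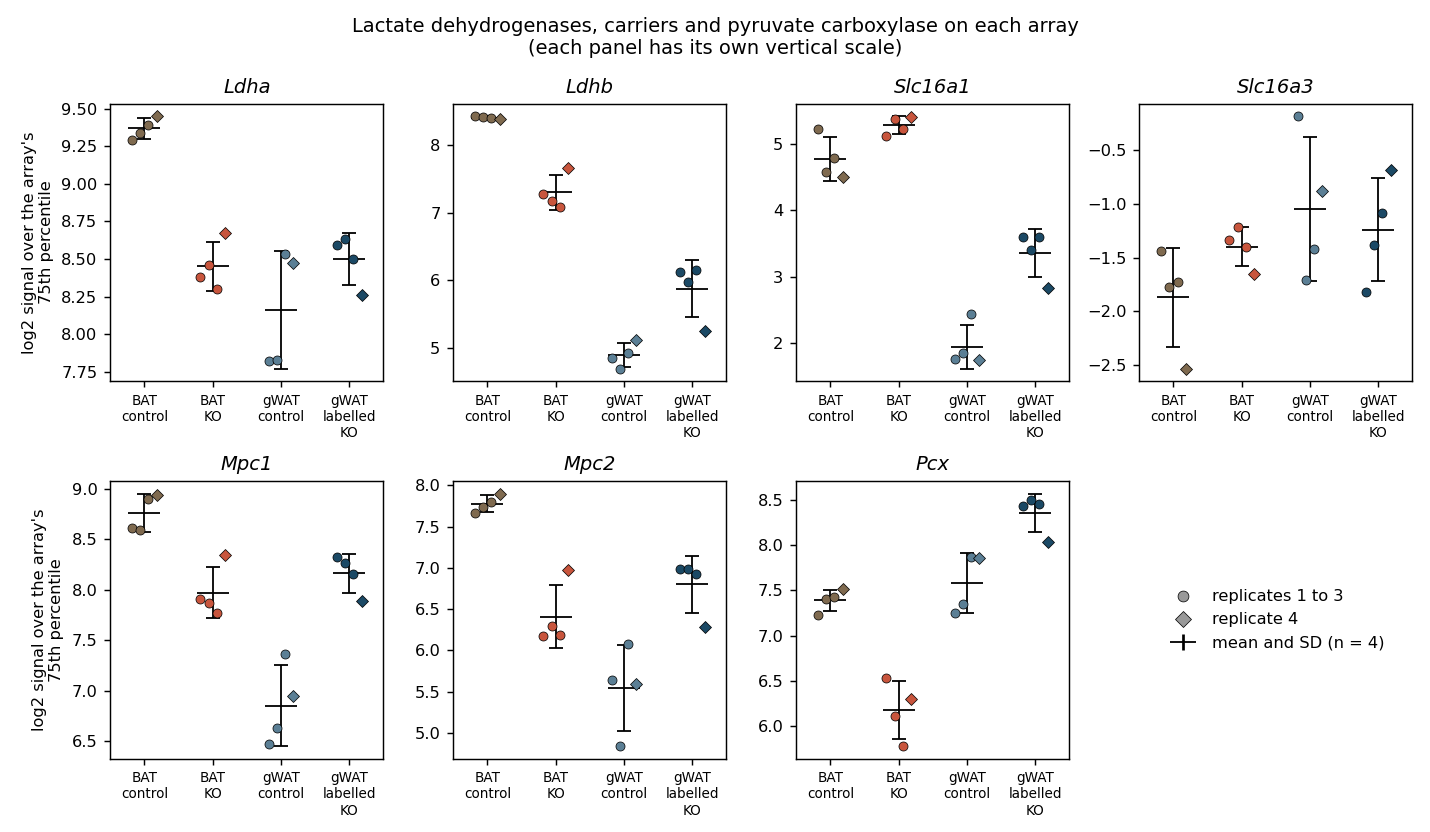
Level of each of the 7 genes on each of the 16 arrays (vertical axis, log2 signal over the array's 75th percentile, own scale per panel), with points for arrays, diamonds for replicate 4, and bars for the mean and SD of 4 arrays. In BAT the KO arrays lie below all controls for Ldha, Ldhb, Mpc1, Mpc2 and Pcx, and in gWAT the arrays labelled KO lie above all controls for Ldhb, Slc16a1, Mpc1, Mpc2 and Pcx.

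Both lactate dehydrogenase subunits fell in BAT of Adipo-Pgam1 KO mice. Ldha levels were 9.29, 9.34, 9.39 and 9.45 in controls and 8.38, 8.46, 8.30 and 8.67 in KO mice, a relative expression of 0.53 (log2 standard error 0.10, adjusted p = 0.000115). The highest KO array lay 0.62 below the lowest control. Ldhb levels in KO mice were 7.27, 7.17, 7.08 and 7.66, below the narrow control range of 8.38 to 8.42 given above. Its relative expression was 0.465 (log2 -1.11, standard error 0.13, adjusted p = 0.00014), and a gap of 0.71 separated the groups. A further probe of each gene gave the same direction without overlap, at -0.68 for Ldha and -1.08 for Ldhb.

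Both subunits of the mitochondrial pyruvate carrier fell as well, with the larger estimate for Mpc2. Mpc1 levels were 8.61, 8.59, 8.90 and 8.94 in control BAT and 7.91, 7.87, 7.77 and 8.34 in KO BAT (log2 -0.79, standard error 0.15, adjusted p = 0.00187). Mpc2 went from 7.66, 7.74, 7.80 and 7.90 in controls to 6.18, 6.29, 6.19 and 6.97 in KO mice. The KO level was 0.387 of the control level (log2 -1.37, standard error 0.18, adjusted p = 0.000247). For neither subunit did the genotypes overlap, and a further Mpc1 probe fell by 0.94 on the log2 scale. Taken as a difference within each array, Mpc2 minus Mpc1 moved by -0.58 (standard error 0.09) between genotypes in BAT without overlap, and by -0.04 (standard error 0.22) in gWAT with overlap. This comparison of subunits was not tested across genes.

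Pcx, the route from pyruvate to oxaloacetate, stood at 7.23, 7.40, 7.43 and 7.52 in control BAT and at 6.53, 6.11, 5.78 and 6.30 in KO BAT. The KO level was 0.43 of that in controls (log2 -1.22, standard error 0.16, adjusted p = 0.000249), and the lowest control exceeded the highest KO array by 0.70.

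The plasma membrane carriers did not share this fall, although scaling on Actb and Rplp0 put both Slc16a1 (-0.085) and Slc16a3 (-0.13) just below 0, neither past the threshold. Slc16a1 levels were 5.12, 5.37, 5.22 and 5.40 in KO BAT against 5.22, 4.58, 4.79 and 4.50 in controls. Limma put it higher in KO mice (log2 0.51, standard error 0.17, adjusted p = 0.026), but control replicate 1 lay among the KO arrays, and an exact two-sided permutation test over 70 splits of 4 against 4 arrays gave p = 0.0857. The call was lost without control replicate 2 (log2 0.44, adjusted p = 0.0691), 3 (0.51, 0.0509) or 4 (0.41, 0.061), or without KO replicate 2 (0.48, 0.0656) or 4 (0.46, 0.0635). Slc16a3 levels of -1.34, -1.22, -1.40 and -1.65 in KO BAT overlapped with -1.44, -1.77, -1.73 and -2.53 in controls (log2 0.46, standard error 0.22, adjusted p = 0.0985), and leaving out 1 control took it from 0.24 without replicate 4 (adjusted p = 0.159) to 0.61 without replicate 1 (adjusted p = 0.041).

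Of the 7 genes, 5 fell and 1 rose in BAT, where 61.5% of all 14267 genes tested passed, 33.9% lower and 27.5% higher in KO mice. Groups did not overlap for 5 of the 7 and for 57.1% of all genes, each with p = 0.0286 by the exact permutation test, the smallest it can give. The median log2 difference was -0.92 over the 7 genes and -0.08 over all genes. On the slide that held both genotypes (1 control against 4 KO arrays, with the lone control, replicate 4, taken to vary like the KO arrays) the estimates were -1.0 for Ldha, -1.08 for Ldhb, -0.97 for Mpc1, -1.49 for Mpc2, -1.35 for Pcx, 0.78 for Slc16a1 and 1.12 for Slc16a3, each resting on 1 control array, with adjusted p from 0.00963 to 0.0265. Slide as a fixed block gives the same estimates by design, since the other slide held controls only, and so is not a separate check. For Slc16a3 that control was the lowest of its group at -2.53. Quantile normalization left Ldha at -0.16 (adjusted p = 0.12) and Mpc1 at -0.18 (adjusted p = 0.179), short of the threshold. Scaling on the spike-in probes left Mpc1 at -0.28 (adjusted p = 0.0723) and took Slc16a3 to 0.97 (adjusted p = 0.00725). It left smaller falls that still passed, at -0.41 for Ldha, -0.60 for Ldhb, -0.86 for Mpc2 and -0.71 for Pcx, and put Slc16a1 at 1.01.

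In gWAT, the arrays labelled Adipo-Pgam1 KO held more transcript of Ldhb, Slc16a1, both pyruvate carrier subunits and Pcx than controls. Ldhb levels were 6.13, 5.97, 6.16 and 5.25 in the arrays labelled KO against 4.85, 4.70, 4.93 and 5.12 in controls. The log2 difference was 0.97 (standard error 0.21, adjusted p = 0.019), with a gap of 0.13 between the groups. Ldha did not pass the test, except under spike-in scaling (0.82, adjusted p = 0.00373). It stood at 7.82, 7.83, 8.53 and 8.47 in controls and at 8.59, 8.63, 8.50 and 8.26 in the arrays labelled KO, so the controls fell into a low and a high pair (log2 0.33, standard error 0.20, adjusted p = 0.279; exact permutation p = 0.2).

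Slc16a1 had the largest estimate of the 7 in gWAT. Its levels were 3.59, 3.40, 3.60 and 2.83 in the arrays labelled KO against 1.77, 1.86, 2.44 and 1.75 in controls, or 2.64 times the control level (log2 1.40, standard error 0.22, adjusted p = 0.00691). Slc16a3 again did not pass (log2 -0.20, standard error 0.35, adjusted p = 0.735), and without control replicate 1 its sign turned (0.092, adjusted p = 0.862). Its controls spread from -1.71 to -0.19 and covered most of the range of the arrays labelled KO, -1.82 to -0.69.

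Mpc1 went from 6.47, 6.63, 7.36 and 6.95 in control gWAT to 8.32, 8.26, 8.15 and 7.89 in the arrays labelled KO (log2 1.30, standard error 0.21, adjusted p = 0.00665). Mpc2 went from 5.64, 4.84, 6.08 and 5.59 to 6.99, 6.99, 6.93 and 6.28 (log2 1.26, standard error 0.28, adjusted p = 0.0189). Relative expression was 2.47 for Mpc1 and 2.40 for Mpc2, without overlap of the groups for either subunit. Pcx levels were 7.25, 7.35, 7.87 and 7.86 in controls and 8.43, 8.50, 8.46 and 8.04 in the arrays labelled KO, a relative expression of 1.71 (log2 0.77, standard error 0.19, adjusted p = 0.0274), with 0.17 between the groups. Further probes gave 1.13 for Ldhb and 1.95 for Mpc1 without overlap, and 0.66 for Ldha with overlap. Within each array, Pcx minus Ldha moved by 0.44 (standard error 0.05) and Pcx minus Mpc1 by -0.53 (standard error 0.09) between genotypes, neither with overlap and neither tested across genes.

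In gWAT 5 of the 7 genes rose and none fell, where 17.8% of all 14132 genes tested passed, 9.95% higher and 7.86% lower in the arrays labelled KO. Groups did not overlap for 5 of the 7 and for 24.2% of all genes, and the median log2 difference was 0.97 against 0.05 over all genes. Replicate 4, the mouse given as 14 weeks old, was the lowest of the arrays labelled KO for every gene but Slc16a3, where it was the highest, and without it the same 5 genes passed (1.18 for Ldhb, 1.57 for Slc16a1, 1.39 for Mpc1, 1.43 for Mpc2 and 0.88 for Pcx). Without replicate 1, 2 or 3 of the arrays labelled KO, 2 genes passed (Slc16a1 and Mpc1), with Ldhb, Mpc2 and Pcx at adjusted p of 0.0533 to 0.0756. Without control replicate 1, Pcx reached 0.66 (adjusted p = 0.054), and without control replicate 2, Ldhb reached 0.91 (adjusted p = 0.0549) and Pcx 0.70 (adjusted p = 0.0739). On the slide that held both genotypes, with 1 control against 4 arrays labelled KO, the estimates were 0.75 for Ldhb, 1.61 for Slc16a1, 1.20 for Mpc1, 1.21 for Mpc2, 0.49 for Pcx, 0.022 for Ldha and -0.36 for Slc16a3. Slide as a fixed block gives the same estimates by design, since the other slide held controls only, and none passed the threshold in that fit. The methods' t-test with adjustment left 3 of the 7.

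**Figure D2:**
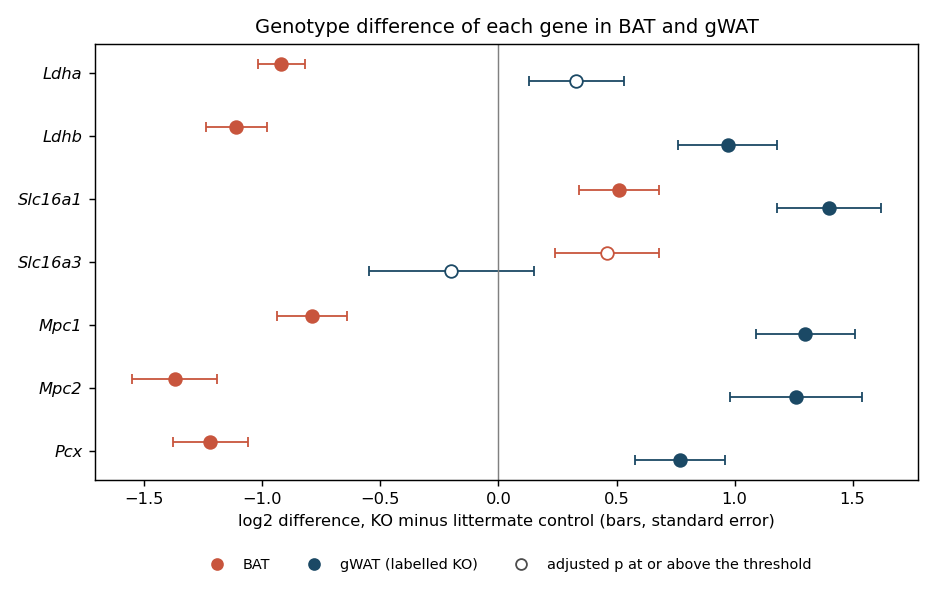
Log2 difference, KO minus littermate control (horizontal axis), of each gene in BAT (red) and gWAT (blue, arrays labelled KO), with standard errors as bars, filled points for adjusted p under 0.05 and open points for the rest. Ldhb, Mpc1, Mpc2 and Pcx lie on opposite sides of 0 in the 2 tissues, and Slc16a1 lies above 0 in both at this scaling, at 0.51 and 1.40 (-0.085 in BAT when scaled on Actb and Rplp0).

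Ldhb, Mpc1, Mpc2 and Pcx were lower in BAT and higher in gWAT, which made 4 of the 7, whereas 3.68% of the 13582 genes tested in both tissues showed that pair of calls. This pair rests on the gWAT labels, which Pgam1 goes against and the brown adipocyte markers that passed in gWAT go with. With the sign in gWAT turned, these 4 genes would be lower in both tissues and Slc16a1 higher in BAT and lower in gWAT. The difference between tissues was tested as such on all 16 arrays as labelled, and was not tested with the sign turned. It was 2.63 for Mpc2 (standard error 0.35, adjusted p = 5.33e-05), 2.09 for Mpc1 (0.26, 3.72e-05), 2.08 for Ldhb (0.26, 3.31e-05), 1.99 for Pcx (0.26, 4.28e-05) and 1.25 for Ldha (0.23, 0.000569). Slc16a1 rose by more in gWAT than in BAT (0.89, standard error 0.29, adjusted p = 0.0198), and Slc16a3 did not pass (-0.66, standard error 0.45, adjusted p = 0.238). Across genes 48.3% of 14792 passed this test, 27.3% with the more positive difference in gWAT, as for these 6 genes, and 21% with it in BAT. Under quantile normalization the tissue difference of Slc16a1 was lost (0.58, adjusted p = 0.083), and with slide as a block so were those of Slc16a1 (0.83, adjusted p = 0.21) and Ldha (1.02, adjusted p = 0.0552).

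Ordered by level, Ldha ran from control BAT to the arrays labelled KO in gWAT, KO BAT and control gWAT, where control BAT differed from its neighbour (0.87, adjusted p = 0.000282) but the other neighbours did not pass the test (0.04, adjusted p = 0.852, and 0.29, adjusted p = 0.147). For Mpc1 and Mpc2 the order was the same, and KO BAT and the arrays labelled KO in gWAT again did not pass, at 0.18 (adjusted p = 0.435) and 0.39 (adjusted p = 0.209), whereas the control groups stood clear above and below them. For Ldhb both BAT groups stood above both gWAT groups, and KO BAT exceeded the arrays labelled KO in gWAT by 1.42 (adjusted p = 2.58e-05). Slc16a1 ran from KO BAT through control BAT and the arrays labelled KO in gWAT to control gWAT, each step passing, the first of them narrowly (0.51, adjusted p = 0.0476). Pcx was highest in the arrays labelled KO in gWAT and lowest in KO BAT, with the 2 control groups between them, whose difference did not pass (0.19, adjusted p = 0.374). No pair of neighbours passed for Slc16a3, the adjusted p running from 0.225 to 0.704.

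Among the other genes that handle lactate, the fall in BAT took in Ldhd, the mitochondrial D-lactate dehydrogenase (log2 -2.39, standard error 0.16, adjusted p = 1.11e-05), 1 of 2 tested of its list. Of 7 tested members of a list of Slc16 family carriers other than MCT1 and MCT4, 2 rose and 1 fell in BAT, where 61.5% of all genes passed. This list was drawn by family, so a place on it does not make a gene a lactate carrier. Slc16a7 (MCT2, a carrier with high affinity for pyruvate) fell by 2.15 on the log2 scale (adjusted p = 1.11e-05), whereas Slc16a6 rose by 2.22 (adjusted p = 2.48e-05). The other riser, Slc16a10, was named after its value was seen (0.38, adjusted p = 0.0235) and its groups overlapped. In gWAT Slc16a7 also fell (by 1.69, adjusted p = 0.00177) and Slc16a6 also rose (1.67, adjusted p = 0.00221), the only 2 of 9 tested to pass, beside 17.8% of all genes. The median of the list was 0.31 in BAT and 0.01 in gWAT.

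Of 3 tested genes on the list of carrier partners, membrane glycoproteins that chaperone the carriers to the cell surface among them, 1 rose, 1 fell and 1 did not pass in BAT (Nptn, neuroplastin, at -0.15, adjusted p = 0.127, named after its value was seen). Over all genes 61.5% passed in BAT and 17.8% in gWAT. Bsg (basigin), the partner of MCT1 and MCT4, fell from 5.06 to 3.73 (log2 -1.33, standard error 0.15, adjusted p = 9.34e-05), and Emb (embigin) rose from -1.87 to 0.72 (2.59, standard error 0.22, adjusted p = 2.94e-05). In gWAT Bsg rose by 0.54 (adjusted p = 0.0378) and Emb, named here after its BAT value was seen, did not pass (-0.29, adjusted p = 0.492). Hcar1, the receptor through which lactate restrains lipolysis in adipocytes, was lower in both tissues, by -1.53 in BAT (adjusted p = 0.000752) and -1.04 in gWAT (adjusted p = 0.0482).

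Of 16 tested genes that form or consume pyruvate, 10 fell and 4 rose in BAT, beside 33.9% and 27.5% of all genes, with a median of -0.87. Among the 4 risers, Pdk3 had 1 of its 4 control spots not well above background. Pck1, the cytosolic phosphoenolpyruvate carboxykinase that follows Pcx in glyceroneogenesis, fell by 2.66 on the log2 scale (adjusted p = 1.5e-05), whereas its mitochondrial form Pck2 rose by 2.40 (adjusted p = 7.26e-06). The malic enzyme Me3 (-1.68, adjusted p = 6.54e-05) and Pdk2, a kinase that switches off pyruvate dehydrogenase (-1.50, adjusted p = 1.66e-05), were lower. In gWAT 8 of 15 tested rose and none fell, beside 9.95% and 7.86% of all genes, with a median of 0.71. Pyruvate kinase Pkm rose by 2.18 (adjusted p = 0.00269), Pdk4 by 2.09 (adjusted p = 0.0198), the pyruvate dehydrogenase subunit Pdhb by 1.89 (adjusted p = 0.00298) and the malic enzyme Me1 by 1.84 (adjusted p = 0.0133). Pdha1, whose spot on 1 array labelled KO was marked as irregular, was not tested in gWAT.

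The NADH shuttles, which compete with lactate dehydrogenase for cytosolic NADH, went both ways in BAT: of 8 measured in both genotypes 5 fell and 3 rose, beside 33.9% and 27.5% of all genes. The aspartate and glutamate carrier Slc25a12 (2.57, adjusted p = 1.83e-05) and the cytosolic aspartate aminotransferase Got1 (1.83, adjusted p = 3.89e-05) were higher, and mitochondrial glycerol 3-phosphate dehydrogenase Gpd2 was lower (-1.30, adjusted p = 0.000293). Slc25a13 was not well above background on any control array, so it entered only through the KO group and is left out of the count. Its level in KO BAT was 1.94-fold above the lowest signal well above background on the control arrays. That mark is set per spot, so this is not a strict lower bound. In gWAT 6 of 9 rose, beside 9.95% of all genes, and none fell, with Gpd2 at 2.04 (adjusted p = 0.00626) and Got2, the mitochondrial aminotransferase, at 1.07 (adjusted p = 0.0099). Gpd2 thus went with Mpc1, Mpc2 and Pcx in direction in both tissues.

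**Figure D3:**
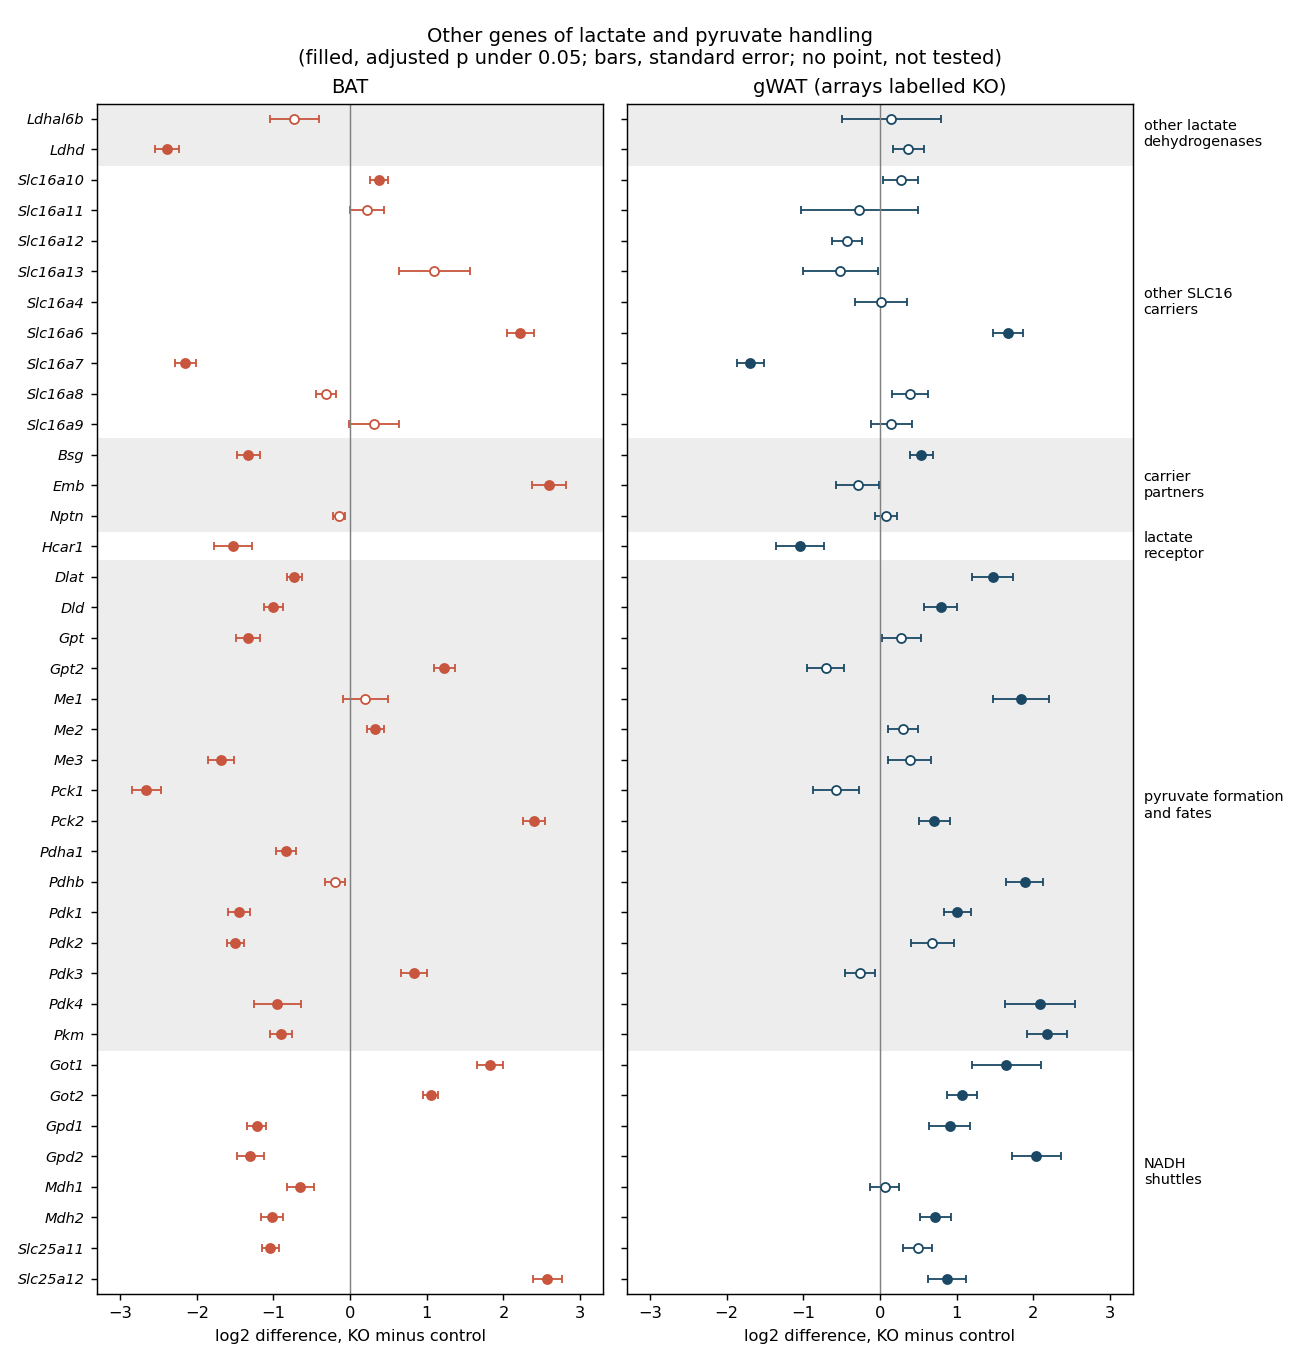
Log2 difference, KO minus control (horizontal axis, bars for standard errors), of the other tested genes on the lists around lactate and pyruvate handling, in BAT and gWAT. Points are grouped by list and filled where adjusted p was under 0.05. The Slc16 carriers were listed by family, whether or not they carry lactate. Slc25a13 is left out because it was not well above background on any BAT control array. Pyruvate genes lie mostly left of 0 in BAT and right of it in gWAT, whereas Slc16a6 and Slc16a7 keep their side in both.

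Of 7 listed transcription factors of lactate and pyruvate genes, 2 rose and 3 fell in BAT, where 61.5% of all genes passed. Myc, which binds E-boxes, rose by 2.35 (adjusted p = 2.74e-05), whereas Ppara (-2.14, adjusted p = 3.24e-05), Epas1, which encodes HIF-2α (-0.94, adjusted p = 0.000192), and Esrra, an estrogen-related receptor (-0.59, adjusted p = 0.000594), were lower. In gWAT 1 of 7 passed, beside 17.8% of all genes: Arnt, the partner of the HIF proteins, at -0.65 (adjusted p = 0.0225). Of 2 genes of biotin attachment 1 was lower in BAT, beside 33.9% of all genes. This was the biotinidase Btd, which recycles the biotin that pyruvate carboxylase carries (-0.52, adjusted p = 0.0041). Hlcs, named after its value was seen, did not pass in BAT (0.03, adjusted p = 0.897), and neither gene passed in gWAT.

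To find the genes whose pattern was most like that of each of the 7, values were centred on their mean over the 16 arrays and compared by root mean square difference, among 12357 genes well above background on every array. The arrays share tissue, genotype and slide, so these figures describe likeness over 4 groups and carry no test. Ldhb was closest to Idh3a and Suclg1, which encode citric acid cycle enzyme subunits (0.12 and 0.17), and to Acadvl, an acyl-CoA dehydrogenase (0.18), where Ldhb itself spread by 1.36 around its mean. Mpc1 was closest to the glycolytic genes Gapdh (0.16) and Aldoa (0.18) and to the mitochondrial ribosome gene Mrpl53 (0.18), with a spread of its own of 0.73. Ldha was closest to Elob, Romo1 and D8Ertd738e (each 0.11, own spread 0.49). Pcx was closest to Gpt, an alanine aminotransferase that makes pyruvate (0.24), Pla2g6 (0.27) and Jazf1 (0.29), and Mpc2 to Cryz (0.27), the complex I subunit Ndufb7 (0.29) and the acyltransferase Agpat2 (0.29). For Slc16a1 the closest were Bri3bp (0.27), Alpl (0.35) and Des (0.35), against an own spread of 1.32, and for Slc16a3 they were Itpr3 (0.27), Mef2c and Dact3 (each 0.30), against 0.51.

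**Figure D4:**
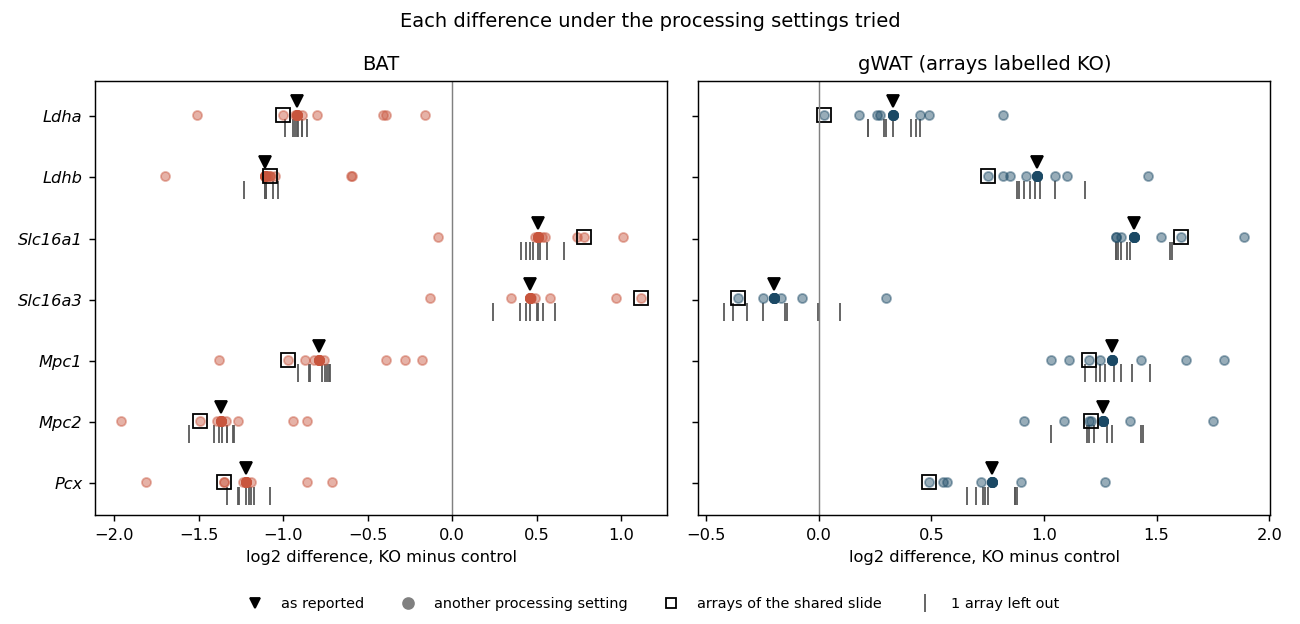
Log2 difference, KO minus control (horizontal axis), of each gene in BAT and gWAT as reported (triangles), under each other processing setting (circles), on the slide that held both genotypes (squares) and with 1 array left out (ticks). Ldhb, Mpc1, Mpc2 and Pcx keep one side of 0 in each tissue throughout, whereas Slc16a1 and Slc16a3 in BAT and Slc16a3 in gWAT cross 0 under at least 1 setting.

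The plot of differences by setting shows how far the sizes depend on scaling. In BAT, Mpc2 ranged from -1.96 to -0.86 and Ldhb from -1.70 to -0.59 over 17 settings other than leaving out an array, each past the threshold throughout. Ldha in BAT ranged from -1.51 to -0.16 and Mpc1 from -1.38 to -0.18, with adjusted p up to 0.12 and 0.179. Slc16a1 in gWAT stayed between 1.32 and 1.89, but did not pass with slide as a fixed block (adjusted p = 0.0873).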

How the data were processed

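RNA from BAT and gWAT was extracted with a lipid tissue kit, labelled with Cy3 in 1 colour and hybridized to Agilent SurePrint mouse arrays, with 1 array per sample and 16 in all. The labels and methods give different amounts of input RNA. Per the file headers, Agilent Feature Extraction 10.7.1.1 gave each spot a processed intensity, background-subtracted and detrended, along with median intensities and marks for irregular spots and for signal well above background; no spot was saturated. The authors also deposited a table of the same intensities scaled in GeneSpring, which matched the scanner values over each array's 75th percentile (SD at most 0.00025 in log2) and served as an alternative. The 75th percentile of intensity ran from 401.3 to 451.3 in control BAT, 650.2 to 916.2 in KO BAT, 570.3 to 855.3 in control gWAT and 656.8 to 831.3 in gWAT labelled KO, and 50.0% to 62.2% of probes were well above background. In BAT the 75th percentiles of the genotypes did not overlap, and the sizes of the differences there changed with the scaling. The number of arrays limits the precision.

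Processed intensities were divided by the 75th percentile of the array and put on the log2 scale. Control spots and irregular spots were left out, and spots of a probe averaged. Of 35886 probes with a RefSeq accession, 32989 (91.9%) matched a gene symbol. The brightest probe over the 16 arrays stood for a gene, and a gene was tested in a tissue when well above background on all 4 arrays of either genotype. Genotypes were compared within a tissue with limma 3.58.1 (R 4.3.3), and tissues on all 16 arrays, with Benjamini-Hochberg adjustment over all genes and a threshold of 0.05. Every adjusted p is limma's unless a sentence names the methods' t-test. Single genes were also put to an exact two-sided permutation test. Relative expression is the KO mean over the control mean, taken on the log2 scale. By its age, replicate 4 of each KO group came from another animal than the rest of its group. The paper gives n = 4 per genotype for the transcripts. For the other arrays separate animals are not stated outright, so p-values measure the spread between these samples. Steps were tested on simulated data. Tables were handled with Python 3.11.15, pandas 2.3.3 and numpy 2.4.6.

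The genes, the lists and the tests were chosen with earlier results of these data known. Besides the 7 genes, at most 4 genes per list and tissue were named, those with the largest change among those past the threshold whose groups did not overlap, together with the 3 genes most like each of the 7. Alternatives covered normalization, scaling, filters, probes, slide, replicate number, test and each array left out; the comparison on 1 slide, and a block of genotype and number together, were added after seeing the data. Probe and protein sequences were not used here, and 1 gene of the Slc16 list is not reported here and was left out of the counts of that list.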

Additional observations from a re-analysis of the deposited data

Results flagged for a closer look

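Of 28 groups of 4 arrays checked over the 7 genes, 4 held 1 array far from the other 3, where chance alone gives about 1 in 20. For Mpc2 the gap to the nearest array took 0.856 of the range of the group in KO BAT, where replicate 4 was high at 6.97, and 0.911 among the arrays labelled KO of gWAT, where replicate 4 was low at 6.28. For Pcx the same replicate of the latter group was low at 8.04, with a share of 0.845. For Slc16a1 replicate 3 of control gWAT was high at 2.44, with a share of 0.842. Replicate 4 of the KO group is the one given as 14 weeks old in both tissues. In both tissues this array also had the lowest share of probes well above background and the lowest spike-in signal of its group. In KO BAT the share was 52.2%, against 58.5% to 60.6% on the other arrays. In gWAT labelled KO the mean log2 spike-in signal was 12.61, against 12.95 to 13.08. The part of age and the part of array signal were not tested.

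The difference between genotypes itself differed between the tissues for 6 of the 7 genes, by limma on all 16 arrays, beside 48.3% of all 14792 genes tested. Taken as the log2 difference in gWAT minus that in BAT, it was 1.25 for Ldha, 2.08 for Ldhb, 0.89 for Slc16a1, 2.09 for Mpc1, 2.63 for Mpc2 and 1.99 for Pcx. These values rest on the gWAT labels and were not tested with the sign in gWAT turned. Pgam1 goes against these labels, and the brown adipocyte markers that passed in gWAT go with them.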

How the results depend on the processing

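The number of the 7 genes past the threshold was 6 in BAT, 6 for the difference between tissues and 6 between control tissues, and under the alternatives it ran from 4 to 7, from 4 to 6 and from 5 to 7. In gWAT it was 5, but 0 with slide as a fixed block, 0 within the shared slide, 3 with the replicate block and 3 by the methods' t-test after adjustment, and 2 to 5 with 1 array left out. Fewer arrays or residual degrees of freedom enter the slide, block and left-out fits. Within a tissue, the fixed slide block and the shared slide give the same estimates by design, so they are not separate checks. The cause of the fewer calls was otherwise not tested. Over all genes in gWAT, 2517 passed, against 1083 with the replicate block, 184 with slide as a fixed block, 121 within the shared slide, 1378 after median centring, 1134 with no filter and 1140 to 3229 with 1 array left out. Directions reversed for Slc16a1 (-0.085) and Slc16a3 (-0.13) in BAT on scaling to Actb and Rplp0, for Slc16a3 in gWAT on spike-in scaling (0.30) and with 1 array left out (-0.42 to 0.092, the latter without gWAT control replicate 1), and for Pcx between control tissues on scaling to Actb and Rplp0 (-0.15) and with slide as a fixed block (-0.035). Spike-in scaling moved the median of all genes to 0.43 in BAT and 0.54 in gWAT, with 78.0% and 96.0% of calls higher in KO, and scaling to Actb and Rplp0 moved it to -0.67 in BAT, with 17.7% higher, against 44.8% as reported. Same-numbered control and KO arrays deviated together with correlations of 0.000375 to 0.219 in BAT and -0.142 to 0.435 in gWAT, so the numbers were not taken as pairs. Between BAT and gWAT of a genotype they were 0.108 to 0.295 for replicates 1 to 3 and -0.185 and -0.0725 for replicate 4; whether these are tissues of the same mice is not given in the sources used here. With a block for genotype and number, 6 genes passed for the difference between tissues and 6 between control tissues. The replicate block left Ldhb (adjusted p = 0.0592) and Pcx (0.0787) short of the threshold in gWAT, and Slc16a1 (0.0639) in BAT.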
